A study of Saccharomyces cerevisiae with 18 samples.

Results

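Hog1 ChIP-seq of Δsko1Δhot1 budding yeast after osmotic shock was compared with Hog1 ChIP-seq of the same strain without shock. These are 2 of the 18 libraries of the series, taken by their labels, and each condition has 1 library. Of 6330 open reading frames (ORFs) with a name of their own, 6013 were used, after the 5% with the lowest summed input signal were left out. In the shocked sample KCl was brought to 0.4 M in part of a growing culture, which was crosslinked 5 min later, and the mock-treated part got an equal volume of the rich medium YEPD alone. Both samples are of the W303 background with Hog1 carrying a 3HA tag at its own locus (HIS3 marker), SKO1 replaced by LEU2 and HOT1 by URA3. The wild-type libraries set beside them are of Hog1-3HA cells without the deletions, of untagged cells (mock IP with the same anti-HA antibody), of input chromatin, and of the polymerase subunit Rpb3. The Rpb3 libraries of Δsko1Δhot1 cells come from separate precipitations with an antibody against untagged Rpb3. Mock IP and input exist for wild type only. The question was where Hog1 still gains ChIP signal in shock when both of these factors are missing.

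Hog1 is the MAP kinase at the end of the high osmolarity glycerol (HOG) pathway. When the medium turns hyperosmotic it is phosphorylated, enters the nucleus and acts on genes that let the cell build up glycerol. Hog1 has no DNA-binding domain of its own and reaches promoters through transcription factors, among them Sko1, a bZIP protein that is a repressor before stress and an activator in stress, and Hot1, which acts at a small set of genes of glycerol synthesis and uptake. Hog1 is also found with RNA polymerase II (RNA Pol II) inside transcribed ORFs. Msn2 and Msn4, which turn on the general stress genes, were intact in the strain.

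Signal here is the authors' length-scaled and depth-scaled coverage of each ORF. A fold is log2 of the KCl signal over the YEPD signal, with a pseudocount of 989 signal units added to both, which pulls the folds of weak ORFs toward 0. "Rose" and "fell" mean at least 2-fold by this measure. With 1 library per condition no difference has a replicate check, no test was made, and the number of reads behind a value is unknown.

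The deletion could be checked at HOT1, which had a Hog1 ChIP signal of 2870 in KCl and 2280 in YEPD in Δsko1Δhot1 cells, against 16800 in KCl and 14000 in YEPD in wild type. The deletion strain's signals were 29.6% and 22.6% of the library medians, while the Rpb3 libraries of the deletion strain held 14.2% in KCl and 6.87% in YEPD. HOT1 signal was thus low in these libraries but not at 0. SKO1 and URA3 were not analysed here. The HOG1 ORF, which carries the tag, had 15300 in KCl and 17800 in YEPD in Δsko1Δhot1 cells, against 96400 and 118000 in tagged wild-type cells, and a mock IP of 9860 and 7270. The high signal that marked this ORF in tagged wild-type cells was thus not seen in the deletion strain. ORF signals of Δsko1Δhot1 were more spread than those of the wild-type Hog1, mock IP and input libraries: the 95th percentile was 2.64 times the 5th in KCl and 4.3 times in YEPD, against 1.5 to 2.25 times in the 6 wild-type libraries of these kinds. The 5th and 95th percentiles were 6140 and 16200 in KCl, against 4780 and 20500 in YEPD. Across the 6013 ORFs the Hog1 fold of Δsko1Δhot1 had a Pearson correlation of 0.36 with the Rpb3 fold of the same strain, 0.38 with the wild-type Hog1 fold, -0.18 with the mock IP fold and -0.25 with the input fold. The ORFs are not independent replicates, and the mock IP and input folds are those of another strain.

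In Δsko1Δhot1 cells Hog1 signal rose at 73 ORFs and fell at 19. These are 1.21% and 0.316% of the ORFs, and the median fold over all ORFs was -0.04. At a cutoff of 1.5-fold, 257 ORFs (4.27%) were higher and 248 (4.12%) lower in KCl. In wild type Hog1 signal rose at 49 ORFs (0.815%), of which 15 also rose in Δsko1Δhot1. Those 15 are 20.5% of the ORFs that rose in Δsko1Δhot1 and 30.6% of those that rose in wild type. The 73 ORFs could be divided into unlike groups. At 32 of them Rpb3 in the same strain also rose at least 2-fold, and these include 9 of the 28 ORFs that the study lists as occupied by Hog1 in wild-type shock. A further 34 were among the 10% of ORFs with the lowest YEPD Hog1 signal, at or below 5860, with no Rpb3 rise. The remaining 7 had neither property, and 5 of them are genes of the GET pathway, which inserts tail-anchored proteins into the endoplasmic reticulum membrane.

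**Figure D1:**
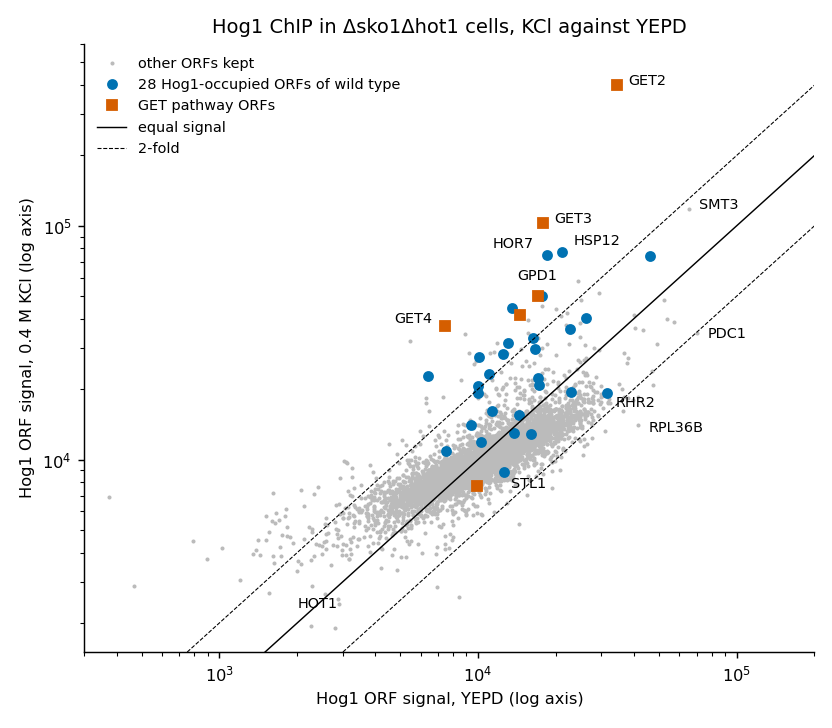
Hog1 ORF signal of Δsko1Δhot1 cells in 0.4 M KCl (vertical, log axis) against YEPD (horizontal, log axis), 1 point per ORF, 6013 ORFs, with the 28 Hog1-occupied ORFs of wild type as blue circles and the GET pathway ORFs as red squares. GET2 stood alone at 401000 in KCl against 34600 in YEPD, HOR7 and HSP12 lay above the 2-fold line, and STL1 and RHR2 lay below the line of equal signal.

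Of the 32 rises that came with Rpb3, 9 were at genes on the list of general stress genes of Msn2 and Msn4, and the others included genes of glycerol and trehalose synthesis, chaperone genes and ORFs without a gene name. At the 32 the median Hog1 fold was 1.3, and the mock IP of untagged wild-type cells had a median fold of 1.14, beside 0.03 over all ORFs. How much of these rises is background of the deletion strain was not tested. HOR7, a small hyperosmolarity-responsive gene, had a Hog1 signal of 74700 in KCl and 18500 in YEPD, a fold of 1.96. HSP12, which encodes a small membrane-stabilising heat shock protein, had 77000 in KCl and 21200 in YEPD (fold 1.81). RTC3, a stress-induced gene, had 44600 in KCl and 13500 in YEPD (fold 1.65). HSP12 and HOR7 were among the 5 ORFs with the highest Hog1 signal in the KCl library, and both had Rpb3 folds above 4 in this strain, 5.53 at HSP12 and 4.68 at HOR7. GPD1, the glycerol-3-phosphate dehydrogenase that starts glycerol synthesis, had 49900 in KCl and 17700 in YEPD (fold 1.45), with an Rpb3 signal of 287000 in KCl and 19900 in YEPD. It was the only one of 14 genes of glycerol metabolism and transport at which Hog1 signal rose in the deletion strain. YFL013W-A and YDR154C, which the files pair with no gene name, had folds of 2.36 (32200 in KCl and 5480 in YEPD) and 1.83 (34300 and 8910). The wild-type mock IP folds were 2.36 at HOR7, 2.63 at HSP12, 1.92 at RTC3, 2.96 at GPD1, 2.39 at YFL013W-A and 0.79 at YDR154C. All but that of YDR154C were above the Hog1 fold.

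Genes of trehalose and glycogen metabolism were also among these rises. Trehalose is a protective sugar that yeast stores in stress, and it is made from glucose by way of UDP-glucose. TPS2, the trehalose-6-phosphate phosphatase, had 28700 in KCl and 9240 in YEPD (fold 1.54), and TSL1, a regulatory subunit of the same complex, 39400 in KCl and 15600 in YEPD (fold 1.28). PGM2, a phosphoglucomutase, had 25700 in KCl and 9650 in YEPD (fold 1.33). UGP1, which makes UDP-glucose, had 28800 in KCl and 11500 in YEPD (fold 1.25). The glucokinase gene GLK1 and the hexokinase gene HXK1 rose too, GLK1 with 58300 in KCl and 24300 in YEPD (fold 1.23) and HXK1 with 34700 in KCl and 15600 in YEPD (fold 1.11). In wild-type Hog1 libraries TPS2 and GLK1 rose as well, with folds of 1.62 and 1.13, while the folds of PGM2, HXK1, UGP1 and TSL1 were 0.59, 0.61, 0.86 and 0.90, under 2-fold. The difference between the strains was not tested, since each has 1 library per condition. Wild-type mock IP folds were above the Hog1 folds of Δsko1Δhot1 at GLK1 (2.16), TSL1 (1.4) and HXK1 (1.13). They were below them at TPS2 (1.45), UGP1 (0.87) and PGM2 (0.74).

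Chaperone and other stress genes followed. HSP104, the disaggregase, had a Hog1 signal of 31600 in KCl and 11800 in YEPD (fold 1.35), HSP82, an Hsp90, 18600 in KCl and 7350 in YEPD (fold 1.23), and HSP26, a small heat shock protein, 32400 in KCl and 13300 in YEPD (fold 1.22). CTT1, the cytosolic catalase, had 31400 in KCl and 13100 in YEPD (fold 1.20), and PNC1, the nicotinamidase, 45300 in KCl and 17600 in YEPD (fold 1.32). DDR2, a stress gene of Msn2 and Msn4, had 43900 in KCl and 20100 in YEPD (fold 1.09). LSP1, a core protein of eisosomes at the plasma membrane, had a fold of 1.09, NRG1, a repressor of glucose-repressed genes, 1.20, and TPO4, a polyamine transporter, 1.29. PMP3, a small membrane protein, had 26500 in KCl and 9830 in YEPD (fold 1.35) but a wild-type Hog1 fold of -0.13. The wild-type mock IP fold was above the Hog1 fold of Δsko1Δhot1 at DDR2 (2.16), CTT1 (1.66) and PNC1 (1.51). It was below the Hog1 fold at the other genes of this group, though close to it at LSP1 (1.06) and TPO4 (1.24).

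By list, the counts can be read beside the 1.21% of all ORFs at which Hog1 signal rose and the 6.19% at which Rpb3 rose. Of 30 general stress genes of Msn2 and Msn4, 9 rose (30.0%) and 0 fell, with a median fold of 0.36, against -0.04 over all ORFs, while Rpb3 rose at 25 of them. With the wild-type mock IP subtracted that median turned to -0.34. Of 18 trehalose and glycogen genes 4 rose (22.2%) with a median of 0.35, and Rpb3 rose at 13. Of 17 heat shock chaperones 2 rose (11.8%), HSP104 and HSP82, and the median was 0.0. HSP78, a mitochondrial chaperone, and SIS1, a J-protein, had folds of 0.76 and 0.63 and stayed under 2-fold. Among 14 genes of glycerol metabolism and transport 1 rose (7.14%), GPD1, with a median fold of -0.23. Folds were below 0 at 10 of the 14, beside 3283 of all 6013 ORFs. In wild type 4 of these 14 rose. The lists were drawn up with earlier results on these libraries known, so their counts describe these libraries and are not independent evidence.

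The 28 ORFs occupied by Hog1 in wild type were chosen by the study on wild-type Hog1, mock IP and input libraries, not on the deletion strain, so the wild-type values given here are those of the choice. In Δsko1Δhot1 cells Hog1 signal rose at 9 of the 28 (32.1%, beside 1.21% of all ORFs) and at 0 it fell 2-fold, with a median fold of 0.66 and a range of -0.67 to 1.96. In wild type all 28 had folds of 1.15 or more, with a median of 2.0. The median signal of the 28 in Δsko1Δhot1 was 22600 in KCl and 14100 in YEPD, against 67200 in KCl and 14400 in YEPD in wild type. Each of the 28 had a lower fold and a lower KCl signal in Δsko1Δhot1 than in wild type. With each KCl signal divided by its library's median, 27 of the 28 were lower in the deletion strain, the exception being HOR7 at 7.69 in Δsko1Δhot1 and 5.83 in wild type. HSP12 was also close in both, at 7.93 and 8.08.

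The 9 that rose were HOR7, HSP12, YER053C-A, RTC3, GPD1, FMP43, CTT1, FMP48 and HXT5. YER053C-A had 22700 in KCl and 6380 in YEPD (fold 1.68). FMP43, a subunit of the mitochondrial pyruvate carrier, had 27400 in KCl and 10100 in YEPD (fold 1.36). HXT5, a hexose transporter, had 23200 in KCl and 11000 in YEPD (fold 1.01), just over the cutoff. YBR085C-A and PIL1, the other core eisosome gene, lay just under it at 0.99 and 0.98. YBR085C-A had 20700 in KCl and 9960 in YEPD, and PIL1 33000 in KCl and 16300 in YEPD.

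At 5 of the 28 the Hog1 signal of Δsko1Δhot1 was lower in KCl than in YEPD, each by less than 2-fold. STL1, the glycerol and proton symporter, had 8840 in KCl and 12600 in YEPD (fold -0.47), against 81000 in KCl and 13200 in YEPD in wild type (fold 2.53). RHR2, a glycerol-3-phosphatase, had 19300 in KCl and 31400 in YEPD (fold -0.67), against 120000 in KCl and 33400 in YEPD in wild type (fold 1.81). HXT1, a low-affinity hexose transporter, had 19500 in KCl and 22900 in YEPD (fold -0.22), against 91300 in KCl and 21800 in YEPD in wild type (fold 2.02). These KCl signals were near or below the YEPD level in Δsko1Δhot1, and that of STL1 was 0.91 of its library's median. PDC6, a minor pyruvate decarboxylase, and SCM4, a mitochondrial outer membrane protein, had folds of -0.30 and -0.08, against 1.17 and 2.41 in wild type. Rpb3 was also low at some of these genes in the deletion strain, with folds of -0.06 at STL1, -0.96 at HXT1 and -2.17 at RHR2, but it was higher in KCl at SCM4 (1.05) and PDC6 (1.47).

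Between these ends were genes with small positive folds. HOR2, the other glycerol-3-phosphatase, had 20800 in KCl and 17200 in YEPD (fold 0.26), against 102000 in KCl and 15000 in YEPD in wild type (fold 2.69). GRE2, a methylglyoxal reductase, had 16100 in KCl and 11300 in YEPD (fold 0.48), against 79500 in KCl and 13400 in YEPD in wild type (fold 2.48). ALD6, the cytosolic aldehyde dehydrogenase, had the highest YEPD signal of the 28, with 74200 in KCl and 46400 in YEPD (fold 0.67). The bZIP factor CIN5 had a fold of 0.89, the proline permease PUT4 0.80, the cell wall protein CWP1 0.66, and the eisosome-associated NCE102 and FMP45 0.62 and 0.37. YLR415C, YJL107C, YOR062C and PRM10 lay between 0.10 and 0.54. Of the study's 20 genes with Sko1, Hot1 and Hog1 in their regulatory regions, 7 rose in Δsko1Δhot1 (35.0%) and the median was 0.55, against a median of 2.11 in wild type. That list was also chosen on wild-type Hog1 libraries of this series.

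**Figure D2:**
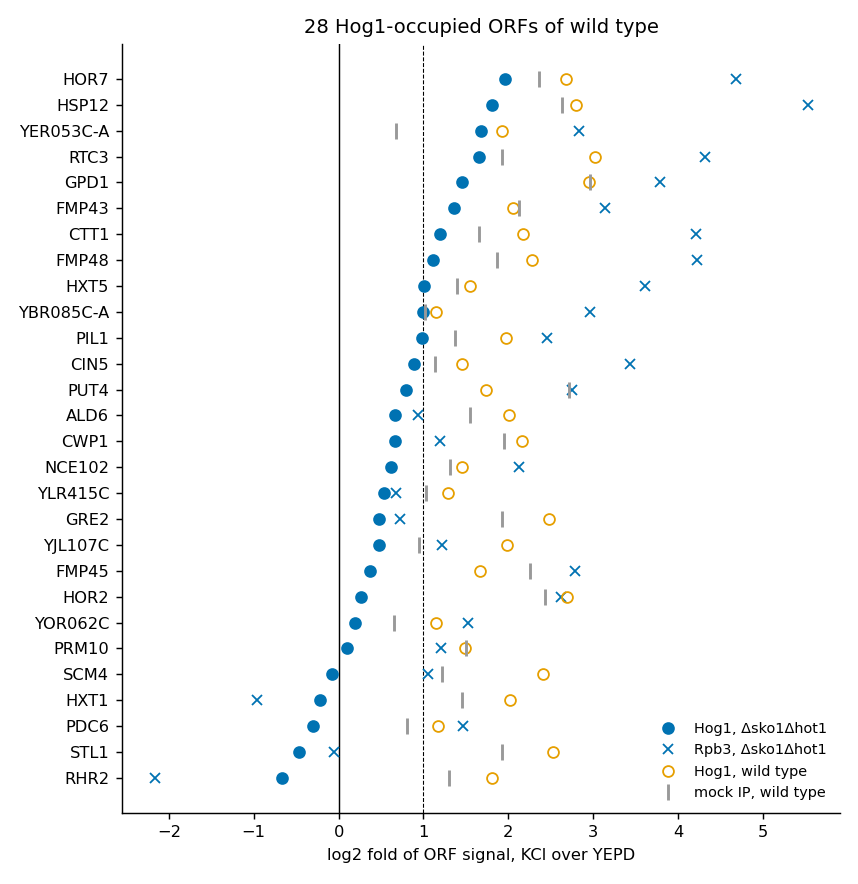
log2 folds (KCl over YEPD, horizontal) of the 28 Hog1-occupied ORFs of wild type, ordered by their Hog1 fold in Δsko1Δhot1 (filled circles), with Rpb3 in Δsko1Δhot1 (crosses), Hog1 in wild type (open circles) and the wild-type mock IP (ticks), 1 library pair each. The filled circles run from 1.96 at HOR7 to -0.67 at RHR2 and lie left of the open circle in every row.

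The mock IP of untagged wild-type cells rose at most of the same genes. Mock IP signal rose in KCl at 24 of the 28 (beside 2.1% of all ORFs), with a median fold of 1.52 and a median signal of 26100 in KCl and 7240 in YEPD. At 11 of the 28 the KCl Hog1 signal of Δsko1Δhot1 was below the KCl mock IP, which held for 10.3% of all ORFs. It held for 0 of the 28 in wild-type Hog1 ChIP, a count set by the study's choice of ORFs with Hog1 above mock IP there. GPD1 had a Hog1 signal of 49900 in Δsko1Δhot1, against a mock IP of 69900 in wild type. The same pair was 8840 and 29800 at STL1 and 19300 and 40500 at RHR2. HOR7 was above it, with 74700 against a mock IP of 38800. The mock IP was taken in wild-type cells, where RNA Pol II was denser at these genes (a median Rpb3 fold of 3.94 for the 28, against 2.54 in Δsko1Δhot1), and no mock IP of Δsko1Δhot1 cells was at hand, so a background of that strain cannot be told apart from Hog1. With the wild-type mock IP subtracted, and differences below 0 set to 0, 2 of the 28 rose, beside 749 of all 6013 ORFs. The median fold of the 28 was then -1.19. Divided by wild-type input, 3 of the 28 rose, beside 99 of all ORFs, and the folds of GPD1 and HSP12 were 0.37 and 0.80.

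The study's criteria for a Hog1-occupied ORF ask that enrichment, which is Hog1 minus mock IP over input in KCl, the ratio of KCl to YEPD signal, and the KCl signal each lie more than 3 standard deviations above their medians. In Δsko1Δhot1 the cutoffs came to 1.87, 2.29 and 30092, and 7 ORFs (0.116%) passed all of them. These were GET2, GET3, GET4, TMA24, SGT2, HOR7 and the glucokinase gene GLK1. With the same criteria 32 ORFs (0.532%) passed in wild type, among them all of the 28. Of the 28 in Δsko1Δhot1, 9 passed the cutoff on signal, 7 that on the ratio and 1, HOR7, that on enrichment. Of all 6013 ORFs, 45, 70 and 16 passed these cutoffs. The median enrichment of the 28 was 0.15, near the 0.18 of all ORFs, with 11 below 0. It was 2.81 in wild type, where all ORFs had a median of 0.50. HOR7 had an enrichment of 3.12 in Δsko1Δhot1 and 3.22 in wild type. The lowest of the 28 in the deletion strain was STL1, with -1.32 in Δsko1Δhot1 and 3.22 in wild type. SCM4, the highest in wild type at 5.91, had -0.37 in Δsko1Δhot1. The count of 7 depended on the GET pathway ORFs and SMT3, whose signals widen the standard deviations: without them, an alternative chosen after seeing the data, 11 ORFs passed, and 10 of these are not among the 28. They were HSP26, GLK1, YDR154C, PMP3, HXK1, PNC1, UGP1, TSL1, PGM2 and TPO4.

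Median Hog1 folds in Δsko1Δhot1 were highest at the ORFs with the strongest Rpb3 rises. Rpb3 rose at 372 ORFs (6.19%) and fell at 479 (7.97%). Of the 372, 32 had a Hog1 rise (8.60%), against 0.727% of the 5641 other ORFs, and the median Hog1 fold of the 372 was 0.21. Where the Rpb3 fold was between 1 and 2 the median Hog1 fold was 0.08 over 255 ORFs, between 2 and 3 it was 0.47 over 76, between 3 and 4 it was 0.89 over 27, and at 4 or more it was 1.30 over 14. All 14 of the last had a Hog1 rise. At the other end, 104 ORFs with an Rpb3 fold below -2 had a median Hog1 fold of -0.49. The wild-type mock IP ran in the same order over these ORFs, with median folds of 0.35, 0.67, 0.99 and 1.76. Across the 28 the Pearson correlation of the Hog1 fold with the Rpb3 fold of the strain was 0.86, over genes that share both pairs of libraries.

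ORFs with much RNA Pol II were compared within and outside the 28. An Rpb3 signal of at least 100000 in KCl was found at 12 of the 28 and at 41 others in Δsko1Δhot1, with median Rpb3 signals of 180000 and 138000. The 12 had a median Hog1 signal of 38400 in KCl (27400 to 77000) and 17200 in YEPD, and the 41 others 32200 (22400 to 58300) and 17600. Hog1 signal was a median 19.9% of Rpb3 signal at the 12 and 22.4% at the 41. The median mock IP of wild type was 30600 at the 12 and 16900 at the 41. In wild type, 21 of the 28 and 40 others passed the same limit, with median Hog1 signals of 76000 (45000 to 169000) and 31000 (14800 to 57100) in KCl and median Rpb3 signals of 289000 and 144000. Hog1 signal was a median 21.9% of Rpb3 signal at the 21 and 21.3% at the 40. With background left in, the shares of the 28 and of the others were near each other in both strains. Their ranges of Hog1 signal overlapped widely in Δsko1Δhot1, but in wild type only from 45000 to 57100. No background was subtracted from these shares, and the mock IP differed between the groups, so the shares do not measure Hog1 per RNA Pol II. In wild type the median mock IP was 29200 at the 21 and 17200 at the 40, and the median Hog1 fold 2.16 and 0.57. In Δsko1Δhot1 the median Hog1 fold was 1.16 at the 12 and 0.9 at the 41. By gene, GPD1 in Δsko1Δhot1 had 49900 Hog1 and 287000 Rpb3 in KCl, and GLK1, which is not among the 28, 58300 Hog1 and 295000 Rpb3. In wild type the Hog1 signals in KCl were 169000 at GPD1 and 43000 at GLK1, beside Rpb3 signals of 864000 and 236000.

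**Figure D3:**
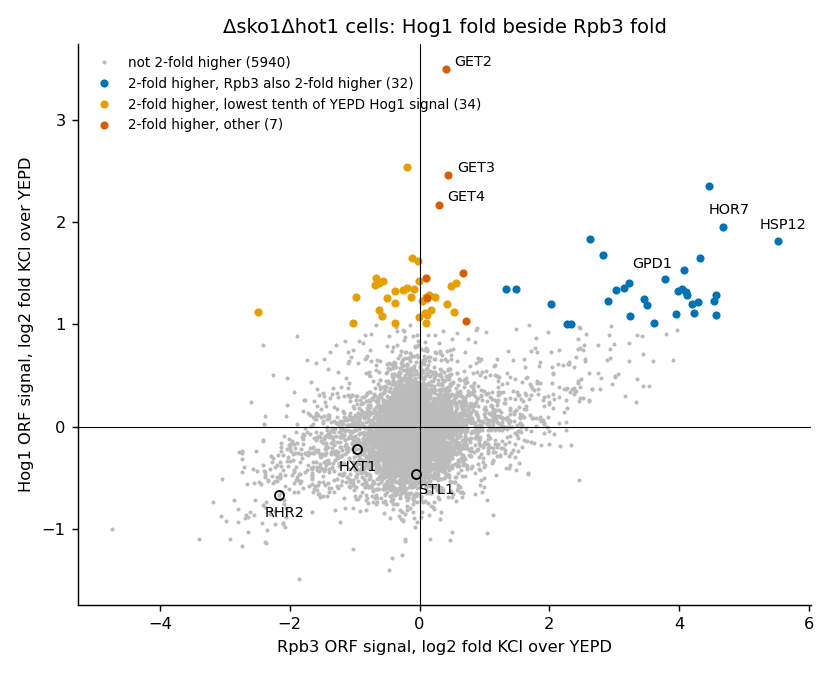
Hog1 log2 fold (vertical) against Rpb3 log2 fold (horizontal) in Δsko1Δhot1 cells, KCl over YEPD, 1 point per ORF, with the 73 ORFs that rose coloured by group (32 with an Rpb3 rise in blue, 34 among the 10% with the lowest YEPD Hog1 signal in orange, 7 others in red) and RHR2, STL1 and HXT1 ringed. The blue points lie at high Rpb3 folds, while GET2, GET3 and GET4 are the highest red points, at Rpb3 folds of 0.29 to 0.44.

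The largest rise of Hog1 signal in Δsko1Δhot1 was at GET2, and 4 other genes of the GET pathway rose with it, a grouping made after their values were seen. In this pathway Sgt2 takes up tail-anchored membrane proteins, Get4 and TMA24 (named MDY2 in the R64 annotation, also Get5) pass them to the ATPase Get3, and Get1 and Get2 form the receptor in the endoplasmic reticulum membrane. GET2 had 401000 in KCl and 34600 in YEPD, a fold of 3.50, and its KCl signal was 41.3 times the library median. GET3 had 103000 in KCl and 17900 in YEPD (fold 2.46), and GET4 37200 in KCl and 7470 in YEPD (fold 2.17). TMA24 had 50100 in KCl and 17000 in YEPD (fold 1.51), and SGT2 41500 in KCl and 14500 in YEPD (fold 1.46). GET1 differed from them, with 7670 in KCl and 9940 in YEPD (fold -0.34). So 5 of the 6 rose.

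At none of these 6 did wild-type Hog1, Rpb3 in Δsko1Δhot1, mock IP or input rise 2-fold. The wild-type Hog1 folds were -0.16 at GET2, 0.15 at GET3, 0.25 at GET4, 0.15 at TMA24 and 0.12 at SGT2. Rpb3 in Δsko1Δhot1 had folds of 0.40 at GET2 and 0.44 at GET3, and the input folds of wild type were 0.21 and 0.15. The mock IP signal at GET2 was 11400 in KCl and 6080 in YEPD, a fold of 0.81. Signal was also high at SMT3, the gene of the ubiquitin-like protein SUMO, with 118000 in KCl and 65200 in YEPD (fold 0.85), against wild-type Hog1 signals of 21900 and 18800 and a mock IP of 35900 and 32400. SMT3 was the second highest ORF in both libraries of the deletion strain. High signal at some of these genes was not confined to Hog1 in KCl. In KCl and YEPD, Rpb3 in Δsko1Δhot1 was 57000 and 67200 at SMT3, against 21500 and 14500 in wild type. At GET2 it was 32800 and 24600, against 16200 and 17200, but at SGT2 16100 and 14900, against 16000 and 13700. The mock IP at GET3 was 13000 in KCl and 21300 in YEPD. Whether the very high signal at the GET pathway ORFs and SMT3 comes from chromatin bound by Hog1 or from other DNA was not tested. The values thus stand as measured signal only, including where these ORFs passed the study's criteria. The last of the 7 ORFs that rose without an Rpb3 rise or a low YEPD signal were MTC7, with 21800 in KCl and 8560 in YEPD (fold 1.25), and YLR101C, with 13300 and 5990 (fold 1.03).

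**Figure D4:**
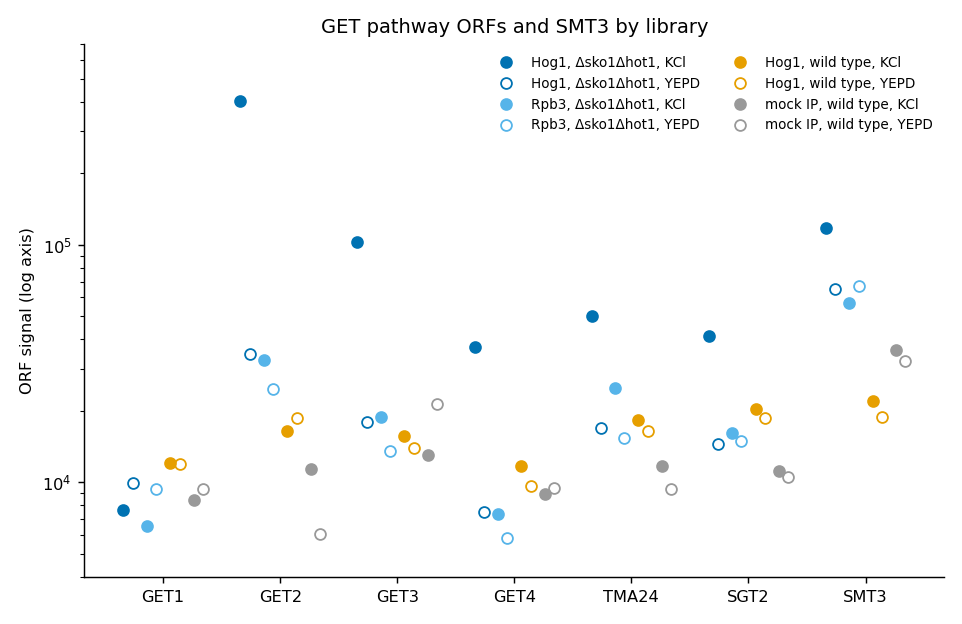
ORF signal (log axis) at 6 GET pathway ORFs and SMT3 in KCl (filled) and YEPD (open), for Hog1 and Rpb3 in Δsko1Δhot1 and for Hog1 and mock IP in wild type, 1 library per point. The filled dark blue point of Hog1 in KCl is the highest of its gene at all but GET1, where it was 7670.

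The 34 rises with a low YEPD signal were mostly at ORFs without a gene name. The R64 annotation does not list 23 of them, beside 6.75% of the ORFs used. Their median signal was 5720 in KCl and 1720 in YEPD, both below the library medians of 9710 and 10100, and the highest KCl signal was 12100. YDR053W, with 6940 in KCl and 375 in YEPD, had a fold of 2.54, the second largest of all, and YER085C, with 7180 and 1610, and YBR064W, with 4470 and 787, had folds of 1.65 and 1.62. Few carry a gene name: PET100, an assembly factor of cytochrome oxidase, had 7120 in KCl and 2330 in YEPD (fold 1.29). The wild-type input fold, as rounded, was below 0 at 32 of the 34, with a median input fold of -0.25, beside 0.03 over all ORFs. None of the 34 rose in wild-type Hog1 ChIP, where their median fold was 0.06. More widely, the 604 ORFs with a YEPD signal at or below 5860 had a median Hog1 fold of 0.41 and a median input fold of -0.13. Without those 604, an alternative chosen after seeing the data, 35 ORFs rose. Both the 34 and the 604 were picked by a low YEPD signal in 1 library, and that signal is the divisor of the fold. Such a choice by itself favours high folds, so the median of 0.41 and the drop to 35 are not separate findings.

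The 19 falls were partly at strongly transcribed growth genes. Glycolytic genes and genes of ribosomal proteins are among the most transcribed in rich medium, and Rpb3 fell at many of them in this strain. CDC19, pyruvate kinase, had 20900 in KCl and 47400 in YEPD (fold -1.14), and ENO2, enolase, 18500 in KCl and 41700 in YEPD (fold -1.13). RPL36B had 14100 in KCl and 41600 in YEPD, the largest fall of all (fold -1.5), RPS12 13200 and 31000 (fold -1.17), RPP0 18000 and 39800 (fold -1.10), and RPL8A 12400 and 27700 (fold -1.10). PHO84, the phosphate transporter, had 18400 in KCl and 37900 in YEPD (fold -1.0), beside the lowest Rpb3 fold of all ORFs, -4.74. PDC1, the main pyruvate decarboxylase and the highest signal of the YEPD library, just missed the cutoff with 34900 in KCl and 70100 in YEPD (fold -0.99). Rpb3 fell at 10 of the 19. It did not at SPT4, an RNA Pol II elongation factor, with 16200 and 36300 (fold -1.12, Rpb3 fold -0.22), nor at the unnamed YJL032W, YNL276C and YLR416C, with folds of -1.40, -1.29 and -1.26. Of the 19, 7 are not in the R64 annotation.

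By list, 5 of 126 cytosolic ribosomal protein genes fell (3.97%, beside 0.316% of all ORFs) and 0 rose, with a median Hog1 fold of -0.39. Their Hog1 folds were below 0 at 110, and counts of this kind can be read beside 3283 of all 6013 ORFs. Rpb3 fell at 122 of the 126, beside 7.97% of all ORFs. Of 18 glycolysis and fermentation genes 2 fell (11.1%), CDC19 and ENO2, and 17 had folds below 0, with a median of -0.43. TDH2, a glyceraldehyde-3-phosphate dehydrogenase, had a fold of -0.96, while its paralog TDH3 had 48000 in KCl and 52300 in YEPD (fold -0.12). Of 57 amino acid synthesis genes none passed the cutoff, but 51 had folds below 0 and the median was -0.30. ARO2, ILV3 and ILV5, of aromatic and branched-chain amino acid synthesis, had folds of -0.93, -0.80 and -0.79. The 45 ribosome biogenesis genes had a median of -0.05, near that of all ORFs, although Rpb3 fell at 35 of them. NSR1 and NOP1, both nucleolar proteins, had the lowest folds of the list, -0.74 and -0.60. Translation factors had a median of -0.19, with YEF3, an elongation factor, at -0.88.

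In the other lists at most 1 member passed the cutoff, apart from the qPCR list. The 24 sensors, kinases and phosphatases of the HOG pathway had 0 rises and 0 falls and a median of -0.12, with CDC42 at -0.50. Among 15 osmostress transcription factors and corepressors only NRG1 rose, and TUP1, the corepressor that acts with Sko1, had a fold of -0.44. The 29 mating genes had a median of 0.0 and a range of -0.51 to 0.57. The 10 histone genes had 0 past the cutoff but a median of 0.62, higher than those of the general stress and trehalose lists. Of the 10, 8 had folds above 0, beside 2676 of all 6013 ORFs. With the wild-type mock IP subtracted the histone median was 1.76. HTA1 had 33100 in KCl and 17100 in YEPD (fold 0.91), and its Rpb3 fold was 0.57. Of 10 hexose transporters HXT5 rose, and HXT4 was just under the cutoff at 0.97, with 20700 in KCl and 10100 in YEPD. Of 14 eisosome genes LSP1 alone rose, and of 14 aldehyde dehydrogenases and reductases 0 did, with YDL124W highest at 0.90. Of 11 ORFs with qPCR primers of the study GPD1 and RTC3 rose, the median was -0.12, and ACT1 and POL1 had folds of -0.11 and 0.0. The marker genes HIS3 and LEU2 had folds of -0.49 and -0.46.

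Promoter windows, the 1000 bp upstream of each ORF, changed at few genes. Of 6278 windows 27 rose (0.43%) and 2 fell (0.0319%), with a median fold of -0.01. Only the columns of the 2 Δsko1Δhot1 Hog1 libraries were used from this table, because the heads of its wild-type columns do not match their contents: the column headed as input in KCl holds 207000 at the GPD1 promoter, while the ORF table has 25300 as the input at GPD1. The filter and the pseudocount still rest on the columns headed as input. With a pseudocount of 0.01 times or 1 times the median of that column, 54 or 6 promoter windows rose. The highest folds were those of UTP7 (316000 in KCl and 27300 in YEPD) and YER084W (346000 and 30200), both 3.47, and GET2 is the upstream neighbour of both. DUN1 (73100 and 12300, fold 2.46) and BUG1 (89700 and 15700, fold 2.43) have GET3 as theirs, and SEY1 (32100 and 6620, fold 2.09) is next to GET4. Of 22 risen windows whose upstream neighbour is known from R64, 17 had a neighbour whose own ORF rose, which held for 0.809% of all windows with a known neighbour. A window of 1000 bp can reach into the neighbouring ORF. That overlap was not measured, so these window rises cannot be taken as separate from the ORF rises. NNF2, next to CTT1, PPH3, next to TPS2, and YPK2, next to PGM2, are examples among stress genes. The promoter windows of GET2 and GET3 themselves had folds of 0.11 and 0.44.

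At the promoters of the 28 the change was small. HOR7 alone rose, with 23500 in KCl and 9730 in YEPD (fold 1.17), and the median of the 28 was 0.21, with 22 above 0. GPD1 had 10200 in KCl and 9090 in YEPD (fold 0.15), HSP12 11200 and 6840 (fold 0.62), and RTC3 7060 and 5790 (fold 0.24). The promoter fold was below the ORF fold at 22 of the 28, a comparison that was not made over all genes. CTT1, whose ORF rose, had a promoter fold of -0.39 (8950 and 12100). STL1 had 11700 in KCl and 15400 in YEPD (fold -0.36), HXT1 5430 and 4270 (fold 0.28) and RHR2 6430 and 5870 (fold 0.11).

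Downstream windows, 50 to 500 bp past each ORF, changed at more genes. Of 6278 windows 147 rose (2.34%) and 11 fell (0.175%), around a median fold of 0.11. The heads of the wild-type columns do not match here either (71100 at GPD1 under input in KCl), so the filter and pseudocount rest on a doubtful column, and 349 or 4 windows rose with a pseudocount of 0.01 times or 1 times its median. Of the 28, 11 rose, with a median of 0.72, and 23 of the 28 had a higher fold downstream than in the promoter window. That comparison was not made over all genes, where the median fold was also higher downstream (0.11) than in promoter windows (-0.01). HOR7 had 36100 in KCl and 7270 in YEPD (fold 2.14), HSP12 17000 and 4220 (fold 1.76), CTT1 9230 and 1950 (fold 1.74) and PIL1 9670 and 2130 (fold 1.72). The downstream windows of 6 of the 9 ORFs that rose also rose. Those of GPD1 (15300 and 7970, fold 0.85) and HXT5 (0.78) were under 2-fold, and FMP43 had 0.24. STL1 had 4550 in KCl and 5130 in YEPD (fold -0.14), and RHR2 5440 and 7280 (fold -0.35), the lowest of the 28. Beyond the 28, 37 windows that rose belong to ORFs at which Rpb3 rose, among them PNC1 (17500 and 4960, fold 1.61), TSL1 (10200 and 3020, fold 1.44) and DDR2 (14700 and 4890, fold 1.39). In all, 48 of the 147 (32.7%) belong to ORFs with an Rpb3 rise, beside 6.21% of the windows whose ORF was used. MLO1 (47700 and 9400, fold 2.21), which ends next to HOR7, and DDP1 (26700 and 5770, fold 2.01), next to GET4, were among the 3 largest. Many risen windows had a low YEPD signal, which is the divisor of the fold, and a low divisor by itself favours a rise. Without the 10% of windows with the lowest, an alternative chosen after seeing the data, 66 rose, 7 of them among the 28.

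**Figure D5:**
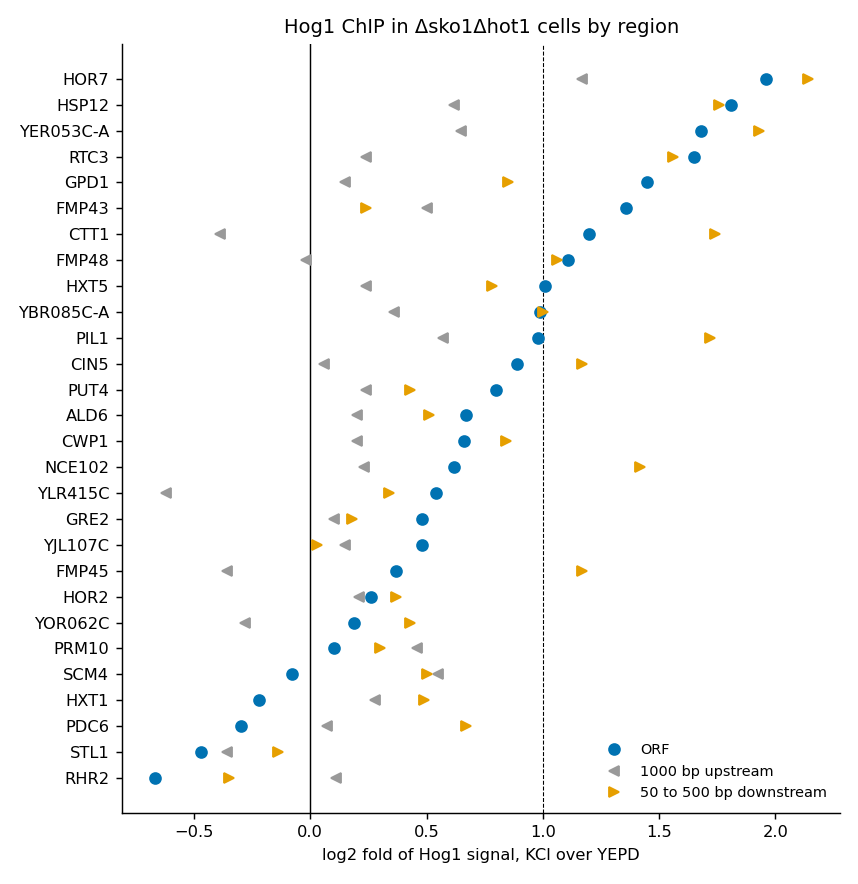
Hog1 log2 folds (KCl over YEPD, horizontal) in Δsko1Δhot1 cells at the ORF (circles), the 1000 bp upstream (left triangles) and the window 50 to 500 bp downstream (right triangles) of the 28 Hog1-occupied ORFs of wild type, 1 library pair. Upstream folds lie between -0.62 and 1.17, and downstream folds reach 2.14 at HOR7.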

How the data were processed

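The values analysed are 2 Hog1 ChIP-seq libraries of Δsko1Δhot1 cells, beside the wild-type Hog1, mock IP and input libraries and the Rpb3 libraries. Per the labels and the study's methods, unique tags were aligned to the yeast genome (sacCer2 and Bowtie in the submitters' processing notes, ELAND in the study's methods, versions not given in the sources used here), extended to the fragment length and summed over each ORF, 1000 bp upstream or 50 to 500 bp downstream. The authors deposited this coverage signal scaled to region length and library total, with parts of overlapping ORFs left out. Total reads per library are unknown from these tables, so counting error could not be given.

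From 6334 ORF entries, 4 that share a name were left out and then the 5% with the lowest summed input, as the study did, leaving 6013. Folds are log2 with a pseudocount of 0.1 times the median YEPD input (989 for ORFs, 1230 for promoters, 1160 for downstream windows). Computation used Python 3.11.15 with pandas 2.3.3, numpy 2.4.6 and matplotlib 3.10.9, and the fold and count steps were tested on simulated data. Gene names and neighbours come from the R64 annotation, which matched 5807 of 6330 ORFs; no coordinates were taken from it.

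Named genes were the 15 largest rises and 10 largest falls, ORFs passing the study's 3 criteria, the 28 occupied ORFs, the study's 20 bound genes, the tag and deletion loci, up to 4 per list, the 5 highest signals of each library and the 10 largest rises by window; the GET pathway genes, SMT3 and other members of the groups of risen ORFs were named after their values were seen. Members and lists were chosen with earlier results of these data known. Alternatives were other pseudocounts, input filters, centring, input division, mock IP subtraction, cutoffs and scatter measures. Motifs in promoters were not analysed here.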

Additional observations from a re-analysis of the deposited data

Results flagged for a closer look

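Of the 49 ORFs at which Hog1 signal rose in wild type, 6 had a fold below 0 in Δsko1Δhot1. Folds below 0 were found at 3283 of all 6013 ORFs in this strain, so the sign alone does not set these ORFs apart. RHR2 had -0.67 in Δsko1Δhot1 against 1.81 in wild type, STL1 -0.47 against 2.53, PDC6 -0.30 against 1.17, HXT1 -0.22 against 2.02 and SCM4 -0.08 against 2.41. YDL221W, an ORF without a gene name, had -0.11 against 1.90. The folds of SCM4 and YDL221W in Δsko1Δhot1 were near the median of all ORFs, -0.04. GET2 went the other way, with 3.50 in Δsko1Δhot1 and -0.16 in wild type. Each value rests on 1 library per condition and strain, and the difference between the strains was not tested.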

How the results depend on the processing

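No paired analysis was possible because each condition has 1 library. Of 203 values recomputed under the alternatives, 144 stayed close to the value reported (within the SD of the fold over ORFs, 0.35, or within 1.5 times a count). A further 57 moved more than that, and 2 folds of at least 2-fold changed sign. The 144 include gene folds that a changed input filter could not move, since it alters only which ORFs are kept. A pseudocount of 1 times the median input left 14 ORF rises and 1 fall, 5 of the 28 up, 6 promoter rises (0 falls, 0 of the 28) and 4 downstream rises (0 falls, 1 of the 28). One of 0.01 times gave 54 and 5 promoter and 349 and 25 downstream rises and falls. Division by wild-type input gave 99 rises, 79 falls, 3 of the 28 up and a median of 0.23 for the 28. Subtraction of the wild-type mock IP, with differences below 0 set to 0, gave 749 rises, 1258 falls, 2 of the 28 up and a median of -1.19 for the 28. The fold of GPD1 turned to -3.42 and that of RTC3 to -0.03, since their mock IP signals in KCl were near or above the Hog1 signals. The 1.5-fold cutoff gave 257 rises, 248 falls and 16 of the 28. Without the 10% with the lowest YEPD signal 35 ORFs and 66 downstream windows rose (7 of the 28), and without promoters beside a risen ORF 10 promoters rose, alternatives chosen after seeing the data. The number of ORFs passing the 3 criteria was 12 at 2 SD, 41 with the median absolute deviation, 11 without the GET pathway ORFs and SMT3, and 0 without the input filter; the cause of the last was not tested. GET2 lay between 3.21 and 3.73 under all 7 alternatives to its fold, of which the changed input filters could not move it. Depth per library is unknown, and mock IP and input come from wild type, so neither counting error nor the background of the deletion strain could be set against these values.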
